A study of Mus musculus with 37 samples.

Results

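Interferon-stimulated genes are transcribed when type I or type III interferon binds its receptor and the kinases Jak1 and Tyk2 start a signal that ends with a complex of transcription factors, Stat2 and Irf9 among them, on the interferon-stimulated response element in promoters. In liver, hepatocytes, Kupffer cells and endothelial cells all carry this response, and its resting level is low in the absence of infection. The genes described here were Ifit1, Ifit3, Isg15, Irf7, Oas1a, Usp18, Ifi44, Rsad2 and Bst2, chosen by name as 9 of the 21450 gene symbols on the array of probes. They were measured by 17 of the 30146 probes, a probe's gene being the part of its name that precedes the number.

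The samples were livers of wild-type Crl:CD1(ICR) mice, an outbred stock, from a reproduction and developmental toxicity study of HFPO-DA, a short-chain perfluoroalkyl ether acid used in making fluoropolymers. Males, about 6 weeks old at the start, were given 84 to 85 daily oral gavage doses, from 70 days before mating through the 14 days of mating. Females, about 11 weeks old at the start, were given 53 to 65 daily doses, from 14 days before mating to lactation day 20 or 21. The vehicle in all groups was deionized water, and HFPO-DA was given at a low (0.1 mg/kg), a middle (0.5 mg/kg) or a high dose (5 mg/kg). There were 5 male controls, 5 males at each of the lower doses and 4 at 5 mg/kg. There were 5 female controls, 5 females at 0.1 mg/kg and 4 at each of the higher doses. Of 40 mice sampled the authors left out 3 for low depth or few probes, which left 37. Sex, age, number of doses and lactation go together in these groups and cannot be told apart. RNA came from scraped sections of formalin-fixed liver, 4 to 6 µm thick, assayed by TempO-Seq, in which pairs of oligonucleotide probes are ligated on a transcript and counted by sequencing.

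Total counts ran from 2101495 to 10548222 in the 19 males and from 7952605 to 13878254 in the 18 females, and 4 males had under 5000000 (replicate 4 at 0.1 mg/kg, replicate 2 at 0.5 mg/kg, and replicates 1 and 3 at 5 mg/kg). Replicates are numbered by order of deposit, and no number links a male to a female. Hepatocyte markers summed to between 14040 and 32890 CPM (counts scaled to a common library size, by TMM) in every mouse. In bulk tissue, fewer cells of a type and less RNA per cell cannot be told apart.

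Promoters are shown first because the response element is the sequence through which genes of this kind are known to be induced. A window from 250 bases before to 50 bases after the transcription start was found for 8 of the 9 genes in RefSeq promoters (GRCm38.p6), all but Usp18. The core of the response element, GAAANNGAA, was searched on both strands, with overlapping matches counted apart, and occurred in 7 of the 8 windows, against 8.56% of all 32851 windows of that length. The window of Irf7 held none of these letters in this order. The gamma-activated site TTCNNNGAA, through which interferon gamma acts, occurred in the windows of Oas1a and Bst2 and in 8.3% of all windows. In the stretches that follow, read 5′ to 3′ along the gene's strand, capitals mark the match to GAAANNGAA or to its reverse complement TTCNNTTTC nearest to the start and any others within 30 bases of it.

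The stretch of Ifit1 lies at chr19:34640765-34640828 on the plus strand and that of Ifit3 at chr19:34583393-34583450 on the plus strand. Isg15 is on the minus strand at chr4:156200861-156200911 and Oas1a on the minus strand at chr5:120907516-120907560. Ifi44 is on the minus strand at chr3:151749890-151749928, Rsad2 on the minus strand at chr12:26456548-26456586 and Bst2 on the minus strand at chr8:71537573-71537617.
Ifit1: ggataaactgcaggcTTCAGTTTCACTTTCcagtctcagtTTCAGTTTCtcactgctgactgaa
Ifit3: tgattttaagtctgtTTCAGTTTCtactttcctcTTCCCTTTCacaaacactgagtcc
Isg15: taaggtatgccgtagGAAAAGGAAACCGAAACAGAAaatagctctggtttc
Oas1a: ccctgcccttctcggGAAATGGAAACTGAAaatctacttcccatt
Ifi44: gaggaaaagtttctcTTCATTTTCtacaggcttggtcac
Rsad2: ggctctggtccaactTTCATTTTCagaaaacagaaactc
Bst2: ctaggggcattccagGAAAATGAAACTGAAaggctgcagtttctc
Matches overlapped each other in Ifit1, Isg15, Oas1a and Bst2 and stood alone in Ifi44 and Rsad2, and in Bst2 the TTCNNNGAA match overlapped them too. The stretch of Oas1a reaches 10 bases past the transcription start and that of Ifi44 21 bases past it, whereas the others end before the start. A match is a run of letters and not a measured binding site.

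Many of the 17 probes were read at low counts, with more zeros among males. In males, 108 of 323 values were 0 (33.4%), 8 probes had a median count under 10, and 3 probes had a count in every male. In females, 12 of 306 values were 0 (3.92%), 1 probe had a median count under 10, and 13 probes had a count in every female. All 17 probes passed the filter on low counts. For each gene the probe with the highest total count is called its lead probe, and among lead probes 29 of 171 values in males and 0 of 162 in females were 0. Levels are not compared between genes, because probes differ in efficiency.

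**Figure D1:**
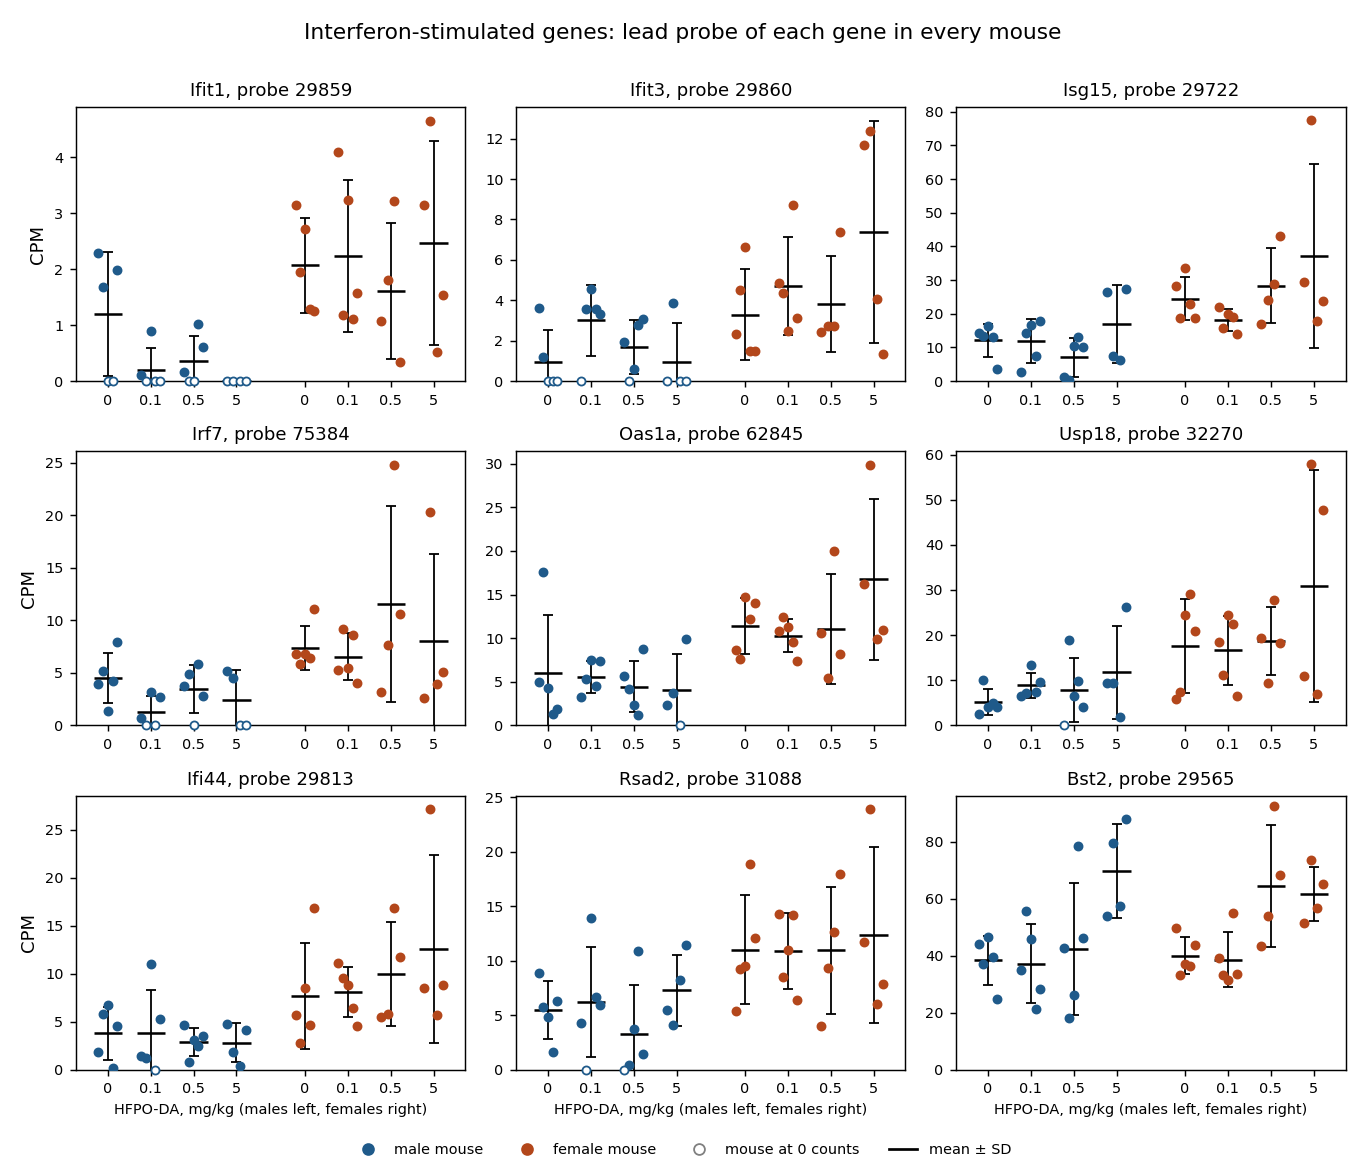
CPM of the lead probe of each of the 9 genes (y axes, each from 0) by HFPO-DA dose in mg/kg (x axes), with males on the left and females on the right of each panel. Points are mice, open points are mice at 0 counts, and black bars are the mean and SD of 4 or 5 mice, with error bars cut off at 0. Zeros occur only among males in these panels, and female replicate 2 at 5 mg/kg is the highest point of its group for each gene.

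In the vehicle controls, the levels were lower in males than in females in the fitted values of 9 of 9 lead probes, but 0 of the 17 probes passed the test (edgeR's quasi-likelihood test, adjusted p under 0.10, with 1 probe at an unadjusted p under 0.05). Over all probes, 2.6% differed between these controls in either direction. The probe with p under 0.05 was the lead probe of Usp18, a protease that removes Isg15 from proteins and blocks the interferon receptor. Control males had 2.40, 10.1, 4.15, 4.92 and 3.98 CPM of Usp18, and control females had 5.87, 7.27, 24.5, 29.1 and 20.9 CPM. The 3 highest females lay above every male and the other 2 lay among them, with a log2 difference of -1.78 ± 0.635 (SE; edgeR adjusted p = 0.191). DESeq2 called this probe and no other member. The difference was -1.01 ± 0.506 (SE; edgeR adjusted p = 0.476) for Isg15, a ubiquitin-like protein joined to other proteins during the response. For Bst2, or tetherin, which holds budding virus particles at the cell surface, it was -0.06 ± 0.272 (SE; edgeR adjusted p = 1).

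The low dose of 0.1 mg/kg gave 0 of 17 probes that passed the test in males and 0 in females, and 0% of all probes were called in males and 0% in females. With edgeR, 2 of the 17 had an unadjusted p under 0.05 in males and 0 in females, and DESeq2 called 0 in both. At 0.5 mg/kg, 0 of the 17 passed in males, where 0.625% of all probes were called, and 0 in females, where 0.113% were called, with 2 and 1 probes at an unadjusted p under 0.05 and 0 called by DESeq2 in each. The intervals, which come from the spread between mice, were wide. For Isg15 in males at 0.5 mg/kg, the log2 fold change was -0.74 with a 95% interval from -1.78 to 0.302, and for Irf7, the factor that amplifies interferon production, it was -0.41 with an interval from -2.14 to 1.32.

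Bst2 was the member called higher in treated males, and its lead probe had at least 48 counts in every mouse. In males, this probe had 44.1, 37.1, 46.6, 39.5 and 24.7 CPM in the controls and 54.0, 79.8, 57.4 and 87.9 CPM at 5 mg/kg. Each of the 4 treated males thus lay above every control, as did 2.78% of all probes in that direction. Bst2 rose in these males, with a log2 fold change of 0.865 ± 0.287 (SE; edgeR adjusted p = 0.0523), with group means of 69.8 ± 16.6 CPM (SD, n = 4) against 38.4 ± 8.49 CPM (SD, n = 5). It was the 1 of 17 member probes called higher in that comparison, where 4.21% of all probes were called higher. Without the 4 males under 5000000 counts, the log2 fold change was 1.08 ± 0.292 (SE; edgeR adjusted p = 0.0187). The call was lost without control replicate 2 (adjusted p = 0.101) or 5 (0.131) and without treated replicate 2 (0.123) or 4 (0.156), all by edgeR.

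The lower doses in males did not stand apart from the controls. At 0.1 mg/kg the lead probe of Bst2 had 34.8, 55.8, 45.8, 21.2 and 28.3 CPM, and at 0.5 mg/kg it had 42.7, 18.1, 26.3, 78.5 and 46.1 CPM. Both groups overlapped the controls on either side, and replicate 4 at 0.5 mg/kg reached the level of the highest dose. A slope over the 4 doses, in log2 units per dose step, was 0.279 ± 0.0904 (SE; edgeR adjusted p = 0.0445), and this was the 1 of 17 probes called higher in the male trend, against 4.24% of all probes. The trend call was lost without control replicate 5 (adjusted p = 0.11), without replicate 2 (0.107) or 4 (0.133) at 5 mg/kg, and with each sex fitted apart (0.147), all by edgeR.

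In females the same probe of Bst2 had 49.9, 33.2, 37.2, 36.5 and 43.7 CPM in the controls and 51.6, 73.5, 56.6 and 65.1 CPM at 5 mg/kg. The groups did not overlap here either, as was so for 4.4% of all probes in that direction. The log2 fold change was 0.622 ± 0.285 (SE; edgeR adjusted p = 0.341), which did not pass the test. At 0.5 mg/kg the 4 females had 43.4, 53.8, 92.6 and 68.4 CPM, with the lowest among the controls, and a log2 fold change of 0.687 ± 0.285 (SE; edgeR adjusted p = 1). The female slope was 0.261 ± 0.0903 per dose step (SE; edgeR adjusted p = 0.109). It passed with DESeq2 and with 5 other settings given in the closing section, and when each sex was fitted apart, both Bst2 probes were called in females at 5 mg/kg (adjusted p = 0.0647 and 0.0928) and neither in males (0.157 and 0.48).

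A second probe of Bst2 gave smaller differences of the same sign. In males it had 23.1, 34.4, 37.9, 14.1 and 17.1 CPM in the controls and 28.1, 24.2, 56.6 and 49.9 CPM at 5 mg/kg, where 2 of the 4 lay above every control. The log2 fold change was 0.643 ± 0.309 (SE; edgeR adjusted p = 0.198). In females it had 28.1, 33.1, 46.5, 33.1 and 30.1 CPM in the controls and 44.2, 48.5, 51.6 and 43.2 CPM at 5 mg/kg, and the log2 fold change was 0.457 ± 0.304 (SE; edgeR adjusted p = 0.694). Only female control replicate 3 reached the treated range on this probe. The difference between the sexes in the effect at 5 mg/kg was 0.243 ± 0.407 (SE; edgeR adjusted p = 0.958) on the lead probe, with a 95% interval from -0.578 to 1.06.

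**Figure D2:**
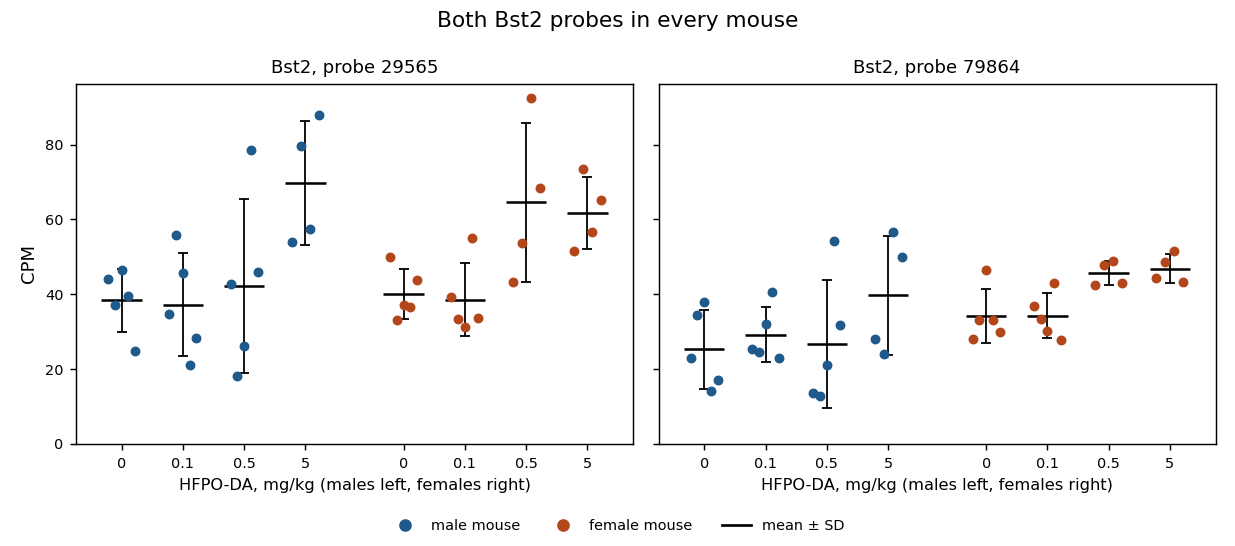
CPM of the 2 Bst2 probes (y axis, from 0) by HFPO-DA dose in mg/kg (x axis), males left and females right in each panel. Points are mice and black bars the mean and SD. On the lead probe the 4 males at 5 mg/kg lie at 54.0 to 87.9 CPM above controls at 24.7 to 46.6 CPM, and on the second probe the male groups overlap.

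Marker sums of several cell types were set beside this rise. Hepatocyte markers (7 of 8 genes listed had a probe) summed to 17100 to 22950 CPM in control males and to 14040 to 16610 CPM in males at 5 mg/kg, a lower range that did not overlap. Kupffer cell and macrophage markers (12 of 12) summed to 156.5 to 630.1 and to 227.2 to 542.1 CPM in these groups, and plasmacytoid dendritic cell markers (7 of 7) to 6.11 to 12.6 and 6.03 to 15.1 CPM, both overlapping. The part of cell makeup in the level of Bst2 was not tested.

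Ifit1, whose protein binds viral RNA that lacks a host cap, was the member with lower counts in treated males, at a level near the limit of detection. Its lead probe had 19, 13, 0, 0 and 14 counts in the 5 control males, 1, 0, 7, 0 and 0 at the low dose, 1, 0, 0, 10 and 4 at the middle dose, and 0 in each of the 4 males at 5 mg/kg. With 2 of 5 controls at 0 as well, the groups overlapped. Against a floor of 3 counts over the group, the level at 5 mg/kg was at least 9.04-fold lower than the 46 counts of the 5 controls. The probe was called lower (edgeR adjusted p = 0.0339) and was the only member probe called in that direction, where 8.49% of all probes were. Without the 4 males under 5000000 counts, which leaves 2 treated males, the adjusted p by edgeR was 0.114.

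The other 2 Ifit1 probes were also at 0 in all 4 males at 5 mg/kg, with controls at 12, 10, 0, 1 and 0 counts on one and 0, 19, 0, 0 and 0 on the other. Their floors gave levels at least 4.52-fold and 3.73-fold lower, and neither was called at 5 mg/kg (edgeR adjusted p = 0.13 and 0.158). In the male trend, where 8.98% of all probes were called lower, 3 of the 17 were, the lead probe of Ifit1, its probe with 12 counts in a control, and the second probe of Ifi44. That Ifi44 probe had 0, 8, 23, 0 and 0 counts in controls and 0 in each male at 5 mg/kg. With the probes of a gene summed, Ifit1 was still called lower in the male trend and Ifi44 was not. With counts thinned to the smallest total, 11 of the 17 probes could be tested. The Ifit1 probes and the second probe of Ifi44 were not among them, so that setting could not test these calls.

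In the same males, T and NK cell markers (10 of 10 genes with a probe) summed to 0 to 4.88 CPM at 5 mg/kg against 6.78 to 29.1 CPM in controls, a lower range of few counts. Their part in the low counts of Ifit1, and that of depth, was not tested. In females, the lead probe of Ifit1 had 30, 19, 29, 13 and 15 counts in controls and 27, 51, 6 and 18 at 5 mg/kg. The female groups overlapped, with a log2 fold change of 0.253 ± 1.27 (SE; edgeR adjusted p = 1). The difference between the sexes at 5 mg/kg rested on the group at 0 and was not called (edgeR adjusted p = 0.265).

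**Figure D3:**
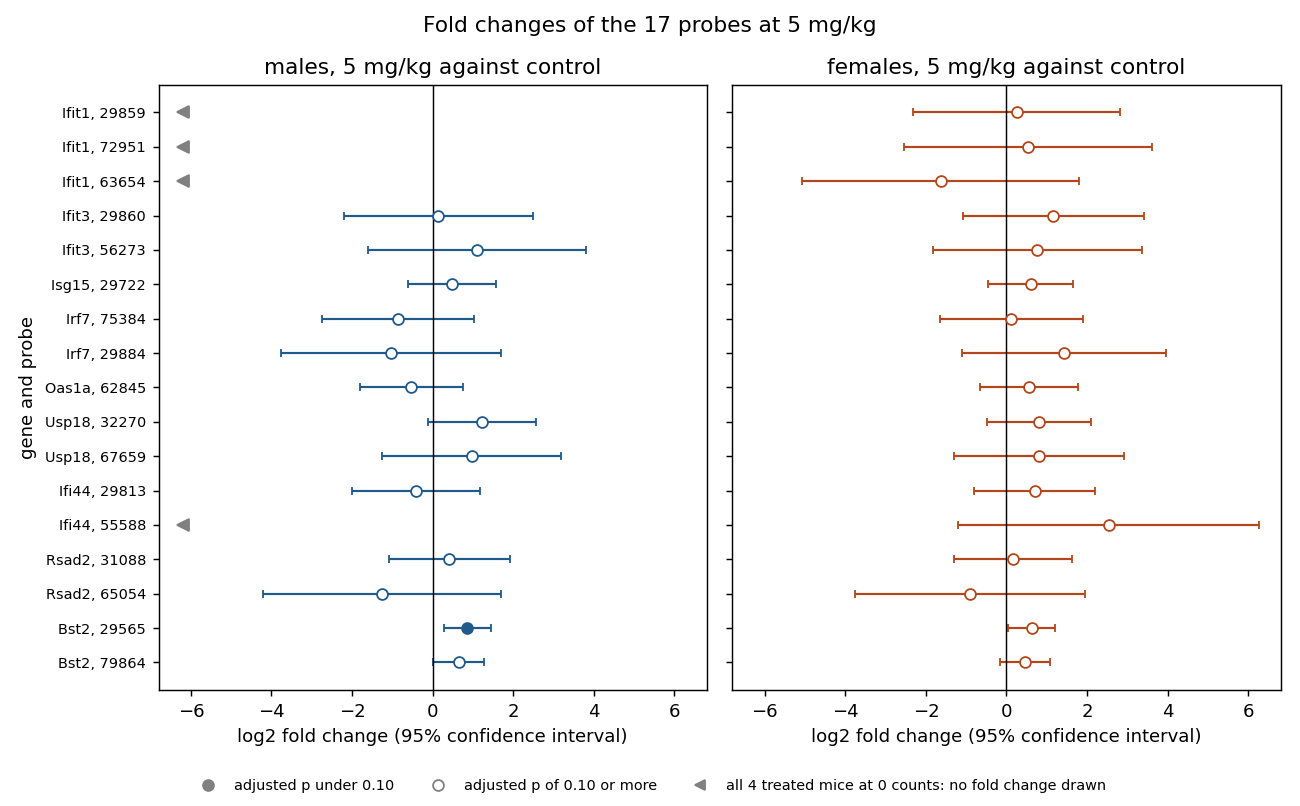
Log2 fold change at 5 mg/kg against the control of the same sex (x axis) for each of the 17 probes (y axis), males left and females right, with 95% confidence intervals. Filled points passed an adjusted p of 0.10, open points did not, and grey triangles mark probes at 0 counts in all 4 treated males. The lead probe of Bst2 in males is the 1 filled point, and the female points lie to the right of 0 for 15 of 17 probes.

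The remaining lead probes at 5 mg/kg in males went either way and none passed the test. Usp18 had the highest fitted fold change, from the control levels above to 9.43, 9.38, 1.88 and 26.3 CPM, a log2 fold change of 1.22 ± 0.663 (SE; edgeR adjusted p = 0.264). The treated males spread from below to above every control. Isg15 had 14.2, 13.5, 16.3, 13.2 and 3.69 CPM in controls and 26.4, 7.50, 6.38 and 27.3 CPM at 5 mg/kg, 2 mice above and 2 among the controls, with a log2 fold change of 0.481 ± 0.538 (SE; edgeR adjusted p = 0.674). Rsad2, or viperin, which makes a chain-terminating nucleotide, had 8.89, 5.71, 4.82, 1.59 and 6.25 CPM in controls and 5.42, 4.08, 8.25 and 11.4 CPM at 5 mg/kg, with overlapping groups (log2 fold change 0.415 ± 0.746, SE, edgeR adjusted p = 0.819).

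Irf7, Oas1a and Ifi44 had fitted values below 0 in these males. Irf7 had 3.96, 5.19, 1.34, 4.25 and 7.96 CPM in controls and 5.19, 4.52, 0 and 0 CPM at 5 mg/kg, where the treated mice were split between the control range and 0 (log2 fold change -0.86 ± 0.931, SE, edgeR adjusted p = 0.662). Oas1a, which makes the 2′-5′ oligoadenylates that activate RNase L, had 4.92, 17.6, 4.28, 1.33 and 1.85 CPM in controls and 2.36, 3.75, 0 and 9.89 CPM at 5 mg/kg (log2 fold change -0.53 ± 0.634, SE, edgeR adjusted p = 0.702). Control replicate 2 was far above the rest, and without it the value was 0.377. Oas1a has near-identical copies in the mouse genome, and how its probe divides reads among them is uncertain, as it is for Ifit3 and its copy Ifit3b.

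Ifi44 had 1.80, 5.84, 6.69, 0.133 and 4.55 CPM in control males and 4.72, 1.88, 0.375 and 4.17 CPM at 5 mg/kg, which overlapped (log2 fold change -0.42 ± 0.788, SE, edgeR adjusted p = 0.829). Ifit3, a partner of Ifit1, had 3.60, 1.17, 0, 0 and 0 CPM in controls and 0, 3.86, 0 and 0 CPM at 5 mg/kg, so that each group turned on 1 or 2 mice (log2 fold change 0.141 ± 1.16, SE, edgeR adjusted p = 0.974).

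In females at 5 mg/kg the fitted values of 9 of 9 lead probes were above 0, with a median log2 fold change of 0.6 against -0.00942 over all probes, and 0 of the 17 probes passed the test (edgeR, with 1 probe at an unadjusted p under 0.05, and 0 by DESeq2). Over all probes 2.26% were called higher and 2.26% lower. A single mouse was the highest of its group for each lead probe, and for 5 of them it stood well above the others. Female replicate 2 at 5 mg/kg had 77.5 CPM of Isg15 where the other 3 had 29.3, 17.7 and 23.8 CPM, 20.3 CPM of Irf7 against 2.57, 3.95 and 5.10 CPM, and 27.2 CPM of Ifi44 against 8.52, 5.71 and 8.85 CPM. It also had 29.9 CPM of Oas1a against 16.2, 9.92 and 10.9 CPM, and 23.9 CPM of Rsad2 against 11.7, 5.97 and 7.83 CPM. Each of its 9 lead probes was above the group mean, from 1.30 times the median of the other 3 mice for Bst2 to 5.33 times for Usp18. It was not alone for Usp18, where replicate 4 had 47.7 CPM against its 57.8 CPM, nor for Ifit3, where replicate 1 had 11.7 CPM against its 12.4 CPM.

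Without this mouse, 4 of the 9 lead probes had fitted values above 0 and 5 below, with a median of -0.0142. Isg15 went from 0.6 to -0.066, Ifi44 from 0.704 to -0.014, Rsad2 from 0.166 to -0.39, Irf7 from 0.117 to -0.94 and Ifit1 from 0.253 to -0.26, all as log2 fold changes. Ifit3 (0.775), Bst2 (0.512), Usp18 (0.305) and Oas1a (0.0986) stayed above 0. Rsad2 was also just below 0 without control replicate 1 (-0.00854). The mouse had 9982023 counts, within the range of its group. Its Kupffer cell and macrophage markers summed to 770 CPM, the highest of a group whose lowest was 397.6 and above the 310.5 to 639.4 CPM of female controls. Its neutrophil markers summed to 25.1 CPM, also the highest of its group but within 23.2 to 42.0 CPM in controls, and its T and NK cell markers to 13.3 CPM. Their part in its levels was not tested.

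**Figure D4:**
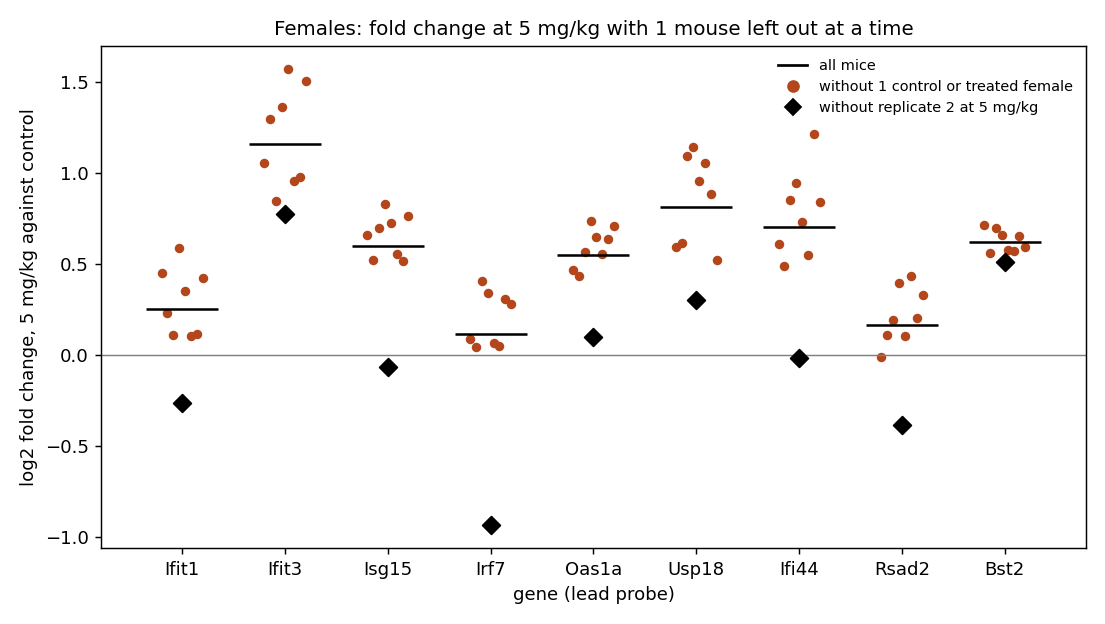
Log2 fold change at 5 mg/kg against control in females (y axis) for the lead probe of each gene (x axis). Lines are the value with all mice, points the values with 1 control or treated female left out, and diamonds the values without replicate 2 at 5 mg/kg. Without that mouse Isg15, Irf7, Ifi44, Rsad2 and Ifit1 fall below 0, while Bst2 stays at 0.512.

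A further comparison asked whether the 9 genes vary together between mice of the same sex and dose. Group means were subtracted from log2 CPM (prior count 2) and the lead probes correlated over the 37 mice, in 36 pairs. Pearson's r was above 0 in 33 of 36 pairs, with a median of 0.254 and a range from -0.115 to 0.558. The pair that passed was Oas1a with Ifi44, at r = 0.558 (permutation p = 0.00073, adjusted p = 0.0263 over 36 pairs) and Spearman's rho = 0.624 (permutation p = 0.00029, adjusted p = 0.0104), and r was 0.504 without the 2 mice farthest from the median of Oas1a. Within males alone r for this pair was 0.52, and within females 0.777.

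The sexes were also taken apart. Over the 18 females the median r of the 36 pairs was 0.474, 35 were above 0 and 5 passed an adjusted permutation p of 0.10, whereas over the 19 males the median was 0.224 and 0 passed. Irf7 with Ifi44 had r = 0.752 in females and 0.352 in males, Irf7 with Bst2 had 0.741 and 0.0629, and Isg15 with Rsad2 had 0.697 and 0.397. In females at 5 mg/kg, replicate 2 lay above the group mean for 9 of 9 genes and replicate 3 for 0 of 9. The correlations in females alone were not recomputed without these mice. The difference between the sexes in r was not tested. All values from a mouse share 1 library, and the mean deviation of the 9 genes also moved with total count within groups (r = 0.546, rho = 0.437, n = 37, as a description). The part of depth in these correlations was not tested.

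**Figure D5:**
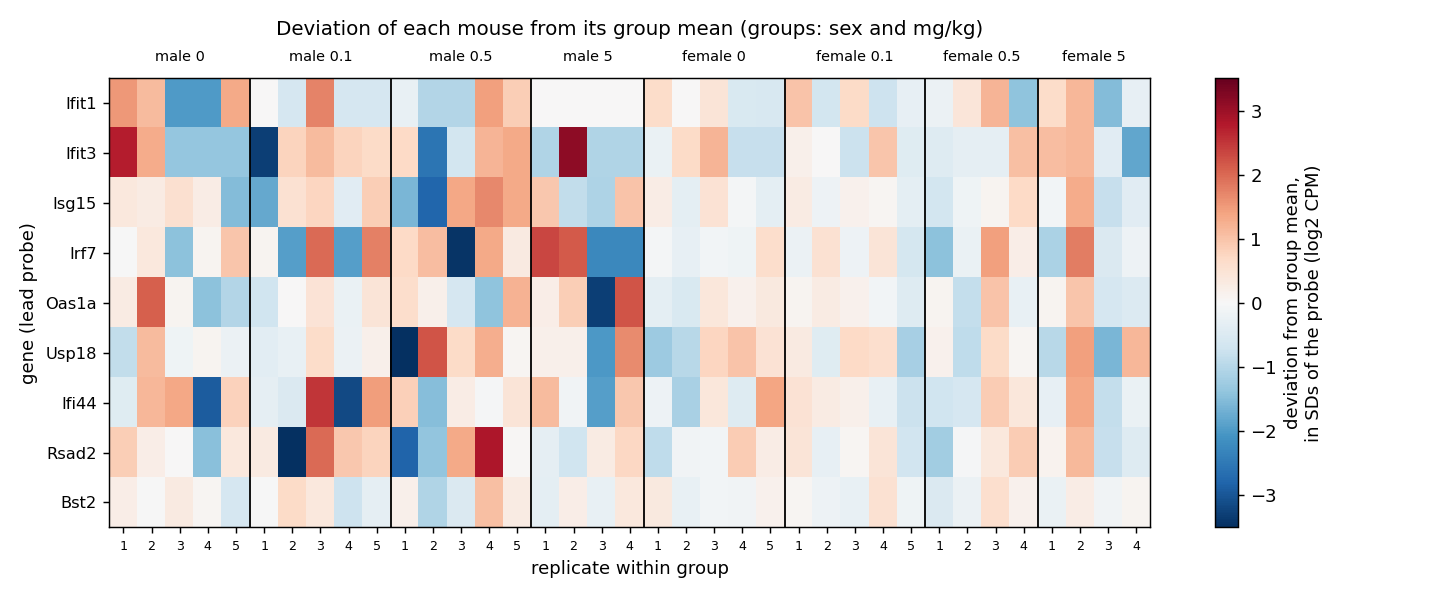
Deviation of each mouse from the mean of its group, in log2 CPM of the lead probe (colour), for the 9 genes (rows) and 37 mice (columns, replicate number below and sex with mg/kg above). The colours are log2 units and were not divided by the SD of the probe, although the colour bar is labelled in SDs. Red columns over most genes mark male replicate 3 at 0.1 mg/kg and female replicate 2 at 5 mg/kg, each above its group mean for 9 of 9 genes, as is male replicate 5 at 0.5 mg/kg by smaller amounts, and female replicate 3 at 5 mg/kg and female replicate 5 at 0.1 mg/kg are below it for 9 of 9. White cells for Ifit1 in males at 5 mg/kg are 4 mice at 0 counts.

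Within groups, r between the probes of 1 gene was 0.405 for Usp18, 0.397 for Bst2, 0.387 for Ifi44, 0.314 to 0.416 for Ifit1 and 0.28 for Ifit3. For Irf7 it was -0.171 and for Rsad2 -0.022, so the second probes of those genes did not follow the first. These second probes had low counts, at 0 in 11 of 19 males for Irf7 and 6 for Rsad2, as had that of Ifi44, at 0 in 13. The residual SD of a lead probe, on the log2 scale within groups, was 0.459 for Bst2 and between 1.06 and 1.49 for the other 8.

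Among the 10 genes whose deviations were most like the members' mean were Igtp (r = 0.705), Hyal2 (0.688), Slc48a1 (0.684), AC125149.2 (0.681), Tgtp2 (0.68), H2-Bl (0.678), Gm29049 (0.672), Samd9l (0.664) and Zfp473 (0.658), over 37 mice. Among the 12995 other genes, each taken at its probe with the highest r, the median r was 0.159 and the 99th percentile 0.546. Igtp and Tgtp2, GTPases induced by interferon gamma, kept r above 0.4 within each sex, as did Slc48a1, AC125149.2, H2-Bl, Samd9l and Zfp473. Hyal2 had 0.804 in males and 0.209 in females.

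The rest of the pathway was read from lists. Of the interferon genes themselves, 17 genes with 21 probes, 0 probes passed the filter on low counts, 6 were at 0 in every mouse and the highest count in any mouse was 18. Of the receptor subunits, 0 of 9 probes were called at 5 mg/kg in either sex (edgeR), where 12.7% of all probes were called in males and 4.52% in females. Below the receptors, 2 of 11 probes fell and 0 rose in males at 5 mg/kg, where 8.49% of all probes were called lower and 4.21% higher. These were a probe of the kinase Jak1 and a probe of Stat2, with log2 fold changes of -0.70 ± 0.252 for Jak1 and -0.72 ± 0.266 for Stat2 (SE; edgeR adjusted p = 0.0757 and 0.0868). The lead probe of Jak1 was another one and was not called.

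The interferon gamma and antigen presentation list had 2 of 45 probes higher and 0 lower in females at 5 mg/kg, where 2.26% of all probes were called higher, Igtp by 1.60 ± 0.508 (SE; edgeR adjusted p = 0.0758) and Psme1, an activator of the proteasome, by 1.09 ± 0.315 (SE; edgeR adjusted p = 0.0401). Without female replicate 2 at 5 mg/kg these were 0.38 and 1.01, with adjusted p = 1 and 0.142. The call of Psme1 was also lost without replicate 3 (edgeR adjusted p = 0.128) and without control replicate 2, 3 or 4, and that of Igtp without control replicate 1, 2, 4 or 5. Psme1 had 23.3 to 31.6 CPM at 5 mg/kg and 10.1 to 20.7 CPM in controls, and its groups did not overlap, as was so for 4.4% of all probes in that direction.

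Among 57 probes of 37 other interferon-stimulated genes, 1 rose and 5 fell in males at 5 mg/kg, where 4.21% of all probes were called higher and 8.49% lower. In females 0 rose and 1 fell, where 2.26% of all probes were called in each direction. These shares are near or under those over all probes. The median log2 fold change was -0.09 in males, against -0.12 over all probes, and 0.282 in females, against -0.00942. The female median of this list was not recomputed without replicate 2 at 5 mg/kg. Ifitm3, a membrane protein that hinders virus entry, fell in both sexes on its lead probe. In males this probe had 76.2 to 145 CPM in controls and 2.25 to 44.6 CPM at 5 mg/kg, with no overlap, as was so for 4.8% of all probes in that direction. It fell by 2.33 ± 0.369 on the log2 scale (SE; edgeR adjusted p = 1.57e-05). In females it had 148 to 208 CPM in controls and 50.5 to 109 CPM at 5 mg/kg, with no overlap, as was so for 4.31% of all probes in that direction. It fell there by 1.23 ± 0.346 (SE; edgeR adjusted p = 0.0316), a call lost without replicate 1 (0.168) or 3 (0.171) at 5 mg/kg. The second Ifitm3 probe fell by 1.29 ± 0.36 in males (SE; edgeR adjusted p = 0.017). Its log2 fold change was -2.03 without replicate 1 at 5 mg/kg and -2.60 without the 4 males under 5000000 counts. In females it was not called, with 71.3 to 97.5 CPM in controls and 28.3 to 73.3 CPM at 5 mg/kg, which overlapped. Lgals3bp, a secreted glycoprotein, rose in males by 0.933 ± 0.285 (SE; edgeR adjusted p = 0.0317), and Parp14 fell by 0.962 ± 0.297 (SE; edgeR adjusted p = 0.0342).

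Of 27 probes of nucleic acid sensors, their adaptors and kinases, 2 fell in males at 5 mg/kg, a share under the 8.49% of all probes. A probe of Irf3 fell by 0.793 ± 0.277 (SE; edgeR adjusted p = 0.0671), and a low probe of Irf5 had 50 counts over the controls and 0 at 5 mg/kg. Neither was the lead probe of its gene, and the lead probes of Irf3 and Irf5 were not called. Of 17 probes of negative regulators, 3 fell and 1 rose in these males, against 8.49% and 4.21% of all probes. Both probes of Irf2, a repressor at the response element, fell, by 2.06 ± 0.47 and 1.52 ± 0.507 (SE; edgeR adjusted p = 0.00277 and 0.0539). Nlrc3 had 91 counts over the controls and 0 at 5 mg/kg. A probe of Tnfaip3 had 0 counts over the controls and 39 at 5 mg/kg, with 2 of the 4 treated males at 0. The lead probe of Tnfaip3 was another one and was not called. In the interferon gamma list, both shares in males were under those same percentages, as 1 of 45 rose, Psme1 by 0.908 ± 0.318 (SE; edgeR adjusted p = 0.0677), and 2 fell. These were the class I histocompatibility gene H2-K1, by 0.928 ± 0.296, and a probe of the immunoproteasome subunit Psmb10, by 1.43 ± 0.544 (SE; edgeR adjusted p = 0.0419 and 0.0959). The lead probe of Psmb10 was another one and was not called. The value of Psmb10 was -3.48 without replicate 4 at 5 mg/kg and -0.59 without the 4 males under 5000000 counts, and its call was lost in 16 of 37 fits with 1 mouse left out. In females 0 probes of the sensors and 0 of the negative regulators were called at 5 mg/kg. Of the 17 list probes called in males at 5 mg/kg, 3 were still called without the 4 males under 5000000 counts, both of Ifitm3 and 1 of Irf2. Without those males the log2 fold change was -0.33 for Jak1, 0.58 for Lgals3bp and -1.01 for the other Irf2 probe. With 1 mouse left out, that of Jak1 was -1.06 without replicate 4 at 5 mg/kg and that of Psme1 0.439 without replicate 1. Among the genes named here, leaving out 1 mouse at a time ended the call for Lgals3bp (up to adjusted p = 0.103), Parp14 (0.142), Tnfaip3 (0.141), H2-K1 (0.156), Irf3 (0.145), Psme1 (0.43), Jak1 (0.196), Irf5 (0.149), Stat2 (0.257) and Psmb10 (0.211), all by edgeR. It ended the call for neither probe of Ifitm3 or Irf2, nor for Nlrc3 (up to edgeR adjusted p = 0.0775).

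The effect of a dose on the 9 genes was compared between the sexes as an interaction. Of the 17 probes, 0 were called at 0.1 mg/kg, where 0% of all probes were called, 0 at 0.5 mg/kg, where 0.0108% were, and 0 at 5 mg/kg, where 0.63% were. With edgeR, 0, 1 and 3 of the 17 had an unadjusted p under 0.05, each for a probe with 0 counts in a male group, and DESeq2 called 0 at each dose. At 5 mg/kg the male minus female difference in log2 fold change was -0.12 for Isg15 with a 95% interval from -1.64 to 1.404, and 0.412 for Usp18 with an interval from -1.44 to 2.27. In the female trend, 0 of the 17 probes passed (edgeR, 1 at an unadjusted p under 0.05, and 1 called by DESeq2), where 2.63% of all probes were called higher and 2.67% lower.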

How the data were processed

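TempO-Seq probe counts of 37 mouse livers were analysed. The authors deposited raw counts of reads per probe, without normalization. Per the labels, the submitters' processing notes name bcl2fastq 2.17.1.14 and Bowtie. The genome build, the aligner's settings and the probe sequences are not given in the sources used here. The member genes and lists were chosen with earlier results of these data known.

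Counts were fitted with edgeR 4.0.16 in R 4.3.3. filterByExpr over the 8 groups kept 18570 of 30146 probes (13004 genes). TMM normalization and 1 quasi-likelihood fit of a mean per group followed, with Benjamini-Hochberg adjustment over the 18570 probes and a threshold of 0.10. The 12 comparisons were each dose against the control of the same sex, a slope over the ordered doses, male against female controls, and the difference between sexes at each dose. CPM used TMM library sizes. Mice were the replicates, and p-values measure the spread between mice. Groups at 0 were given bounds from 3 counts over the group, which cover counting error only. Correlations used 100000 permutations of mice within groups (Python 3.11.15, scipy 1.17.1). Counts of mice of a group differed by a chi-square of at least 21.7 per degree of freedom, and none were merged. The edgeR step was tested on simulated data. Probes of Oas1a and Ifit3 may share reads with near-identical copies.

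Genes named were all probes of the 9 members, the 3 called genes with the smallest adjusted p per list and comparison, and the 10 genes most alike, less 1 gene whose results are not reported here. Alternatives were DESeq2 1.42.0, its size factors, other filters, a robust fit, each sex apart, summed probes, thinned counts, a threshold of 0.05, each mouse left out, and, chosen after seeing the data, the 4 males under 5000000 counts left out and the same for the called list probes. Promoter sequences came from RefSeq (GRCm38.p6).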

Additional observations from a re-analysis of the deposited data

Results flagged for a closer look

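A single mouse lay far from the rest of its group, by Dixon's test at the 95% level on CPM, in 9 of 72 groups of a lead probe. The test's rate of 1 in 20 by chance holds for normally distributed values. These CPM include tied 0s, so the 9 of 72 cannot be set against that rate. For Ifi44 (27.2 CPM) and Irf7 (20.3 CPM), this was female replicate 2 at 5 mg/kg, the mouse without which 5 of the 9 lead probes changed sign in females at 5 mg/kg. For Irf7 it was also female control replicate 5 (11.1 CPM). For Ifit1 it was male replicate 3 at 0.1 mg/kg (0.888 CPM), with 7 counts. For Ifit3 it was male replicate 1 at 0.1 mg/kg (0 CPM), male replicate 2 at 5 mg/kg (3.86 CPM) and female replicate 4 at 0.5 mg/kg (7.35 CPM). For Isg15 it was male control replicate 5 (3.69 CPM), below the others, and for Oas1a male control replicate 2 (17.6 CPM). Several of these rest on few counts.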

How the results depend on the processing

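No paired analysis was run, because each sample was the liver of a different mouse. Counts of member probes called are given here against those reported, 2 of 17 in males at 5 mg/kg, 4 in the male trend and 0 in the other 10 comparisons. With each sex fitted apart there were 0 in males at 5 mg/kg, 2 in females at 5 mg/kg, 0 in the male trend and 2 in the female trend. In that setting 5 low probes could not be fitted in males, all those of Ifit1 and the second probes of Ifi44 and Ifit3. Of the probes called in males, only the lead probe of Bst2 was thus tested again. Counts thinned to the smallest total gave 1 in males at 5 mg/kg and 1 in the male trend. The Ifit1 probes and the second probe of Ifi44 could not be tested there. Without the 4 males under 5000000 counts, chosen after seeing the data, there was 1 in males at 5 mg/kg, 1 in the male trend and 1 in the female trend, each the lead probe of Bst2. A threshold of 0.05 left 1 in males at 5 mg/kg, Ifit1. With probes summed by gene there were 2 in the male trend and 1 in the female trend. The female trend had 1, the lead probe of Bst2, with DESeq2 size factors, with a mean of at least 10 counts, with the robust fit and with DESeq2. The controls of the sexes had 1, the lead probe of Usp18, with no filter and with DESeq2. With 1 mouse left out, males at 5 mg/kg had 1 to 2, the female trend 0 to 1, the male trend 3 to 4 and the controls of the sexes 0 to 1 (another Ifit1 probe, without male control replicate 2). The counts hide a change of members: without male replicate 2 at 5 mg/kg the Bst2 call gave way to Ifit3 (-6.14, adjusted p = 0.0904), and without replicate 4 to the second probe of Irf7 (-6.44, adjusted p = 0.0838), and in each case the treated males left were all at 0 counts. Of 36 pairs of genes, 0 were correlated in males alone and 5 in females alone. The causes were not tested.

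Log2 fold changes that turned direction, without a call, were Ifit1 in females at 5 mg/kg with summed probes (-0.20), Ifit3 in males with thinned counts (-0.15) and Oas1a in males without the 4 males of low depth (0.131). Leaving out 1 mouse moved the values in females at 5 mg/kg from -0.066 to 0.831 for Isg15, -0.014 to 1.22 for Ifi44, -0.26 to 0.586 for Ifit1, -0.81 to 0.95 for a second Ifit1 probe, -0.39 to 0.433 for Rsad2, -0.94 to 0.407 for Irf7 and -0.22 to 1.16 for the second Usp18 probe. In males at 5 mg/kg it moved them from -6.14, called as above, to 1.77 for Ifit3, -4.72 to 2.09 for its second probe, -1.46 to 0.377 for Oas1a and -0.18 to 1.37 for the second Usp18 probe. Low counts limit what can be seen of these genes in males.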
